A study of Homo sapiens with 9 samples.

Results

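The latrophilins ADGRL1, ADGRL2 and ADGRL3 are adhesion G protein-coupled receptors, and the teneurins TENM1, TENM2, TENM3 and TENM4 and the membrane proteins FLRT1, FLRT2 and FLRT3 are their binding partners on neighbouring cells. These 10 genes were taken as named families, chosen by a decrease of ADGRL2 already seen in the libraries labelled KD. Of the 10, 8 had a row among the 22290 genes of the expression table. FLRT1 and FLRT3 had no row and were not analysed here; genes whose count summed over the libraries to less than 10 had been removed by the authors. Because the KD decrease of ADGRL2 chose the set, every difference of these genes between KD and parental is given as a description, without a p-value. Tests of the other genes between OE and KD use the same KD libraries and are not free of that choice.

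RNA-seq had been carried out on IMR-32, a long-established line of human neuroblastoma cells, to compare transcriptomes at altered levels of TRAP1, a mitochondrial chaperone of the HSP90 family. There were 9 libraries in 3 groups of 3: parental cells, genotype WT in the labels, cells labelled TRAP-1 knockdown (KD) and cells labelled TRAP-1 overexpression (OE). All were grown in DMEM with fetal bovine serum, and the KD and OE cells had been made earlier for previous work. Whether each is a clone or a pool, and which construct it carries, is not stated in the sources used here. Total RNA was made into libraries with TruSeq RNA Library Prep Kit v2 and sequenced on the Illumina NovaSeq platform. The values are rlog values, regularized log2 expression levels adjusted for library size, in which each gene is pulled toward its own mean. A difference of rlog values therefore understates a log2 fold change, more so at low levels. The study's methods state a coverage in reads, which is not used here, and the depth that each library reached cannot be read from rlog values. Nothing says that the 3 libraries of a group came from separate cultures, so the p-values measure only the spread between these libraries, which may be technical.

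Latrophilins were found as receptors for alpha-latrotoxin of black widow venom. Each has a long extracellular part that binds teneurins and FLRT proteins on the facing cell, a site of self-cleavage next to the membrane and a heptahelical part that couples to G proteins. In the brain they sit on postsynaptic membranes, where binding of teneurin and FLRT together helps to form excitatory synapses. Teneurins are large transmembrane proteins that also bind each other, and FLRT proteins have leucine-rich repeats and bind UNC5 receptors as well.

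The labels were checked against the data first. TRAP1 (ENSG00000126602, GRCh38 chr16:3651639-3717553, minus strand) had rlog values of 10.67, 10.66 and 10.65 in the parental libraries, 10.79, 10.79 and 10.83 in the libraries labelled KD and 10.67, 10.63 and 10.74 in those labelled OE. All 3 KD libraries lay above all 3 parental libraries, which goes against their label, and the OE libraries overlapped the parental ones. Differences were tested with limma, a moderated linear model over all 9 libraries, adjusted over all 22290 genes, and a gene is called at an adjusted p under 0.05. The difference was 0.14 in KD (standard error 0.025, limma adjusted p = 1.76e-05) and 0.02 in OE (95% interval -0.03 to 0.07, limma adjusted p = 0.643). Less the median difference of its 20-Mb stretch of chromosome the OE difference of TRAP1 was 0.07 (limma adjusted p = 0.0185, against 0.277 to 0.999 under the other alternatives). With DNASE1 on the opposite strand TRAP1 shares 28.5% of its exonic bases, and whether reads were counted by strand is not stated. KD and OE are used below as the names of libraries, and no direction is read as an effect of TRAP1.

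The neuroblastoma label was checked with 13 adrenergic markers, of which 10 had a row. Of these, 4 had a mean rlog under 3, MYCN, PHOX2A and TH among them. MYCN, the oncogene that is amplified in IMR-32, had a mean rlog of 2.52 in parental, 2.60 in KD and 2.51 in OE. PHOX2A was at 1.33 and TH at 2.84 in the parental libraries, whereas ISL1 (9.37), GATA2 (9.27), GATA3 (7.25), HAND2 (6.36), CHGB (5.87) and CHGA (4.07) were higher, and DBH and STMN2 were among those without a row. Of the mesenchymal markers 9 of 9 had a row, led by VIM at a mean rlog of 15.89. The adrenergic markers were thus present in part, and the low level of MYCN goes against what is known of the named line. The authors state that the line was authenticated, which was not tested here, and IMR-32 is used as the name in the labels. In bulk RNA, fewer cells with a transcript and less of it per cell cannot be told apart. No library stood apart, since libraries of 1 group differed by a root mean square of 0.0582 to 0.063 on the rlog scale and libraries of different groups by 0.137 to 0.255.

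Sums of marker levels, taken back from the log2 scale, moved with the groups. The adrenergic sum, with ISL1 as its most abundant gene, was 1630, 1590 and 1600 in parental, 1480, 1460 and 1500 in KD and 1500, 1580 and 1540 in OE. For the mesenchymal list it was 112000 in each parental library, 123000 in each KD library and 114000, 113000 and 115000 in OE. The sum of 4 of 6 Schwann cell markers, led by ERBB3, with SOX10 among those without a row, was 20400, 20300 and 20000 in parental, 23900, 24200 and 23700 in KD and 22500, 22600 and 22800 in OE. The mesenchymal and Schwann sums were thus highest in KD, and the adrenergic sum was highest in parental. Such sums rest mostly on the most abundant genes, and single markers went both ways. In KD 5 of the 9 mesenchymal markers were called higher and 3 lower (88.9% beside 53.7% of all genes), VIM differing by 0.36 and FOSL1 by -0.72. Of the 4 Schwann markers 1 was called higher and 1 lower (50%), and of the 10 adrenergic markers 2 higher and 5 lower (70%). Of 7 endothelial markers 7 had a row, with PECAM1 the most abundant and CDH5 near 0 at 0.63, and they summed to 1180, 1200 and 1180 in parental, 1270, 1270 and 1250 in KD and 884, 915 and 960 in OE. Fibroblast markers (7 of 8 with a row, led by PDGFRB, COL1A2 and COL3A1 near the floor at 1.35 and 1.16, THY1 without a row) summed to 434, 444 and 463 in parental, 438, 490 and 447 in KD and 469, 489 and 481 in OE. Leukocyte markers (3 of 6 with a row, led by LYZ, PTPRC at 2.65, CD3E and CD68 among those without a row) summed to 86.0, 86.6 and 84.7 in parental, 71.7, 72.7 and 70.8 in KD and 74.0, 75.1 and 81.1 in OE. The part of these shifts in the latrophilin, teneurin and FLRT results was not tested.

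The 2 latrophilins that differed most from parental in KD, ADGRL2 downward and ADGRL3 upward, are shown by the sequence at their first-listed RefSeq start (GRCh38.p14, 250 bases before to 50 after, capitals marking CG dinucleotides). For ADGRL2 this is chr1:81800126-81800425 and for ADGRL3 chr4:61200076-61200375, both on the plus strand.

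ADGRL2: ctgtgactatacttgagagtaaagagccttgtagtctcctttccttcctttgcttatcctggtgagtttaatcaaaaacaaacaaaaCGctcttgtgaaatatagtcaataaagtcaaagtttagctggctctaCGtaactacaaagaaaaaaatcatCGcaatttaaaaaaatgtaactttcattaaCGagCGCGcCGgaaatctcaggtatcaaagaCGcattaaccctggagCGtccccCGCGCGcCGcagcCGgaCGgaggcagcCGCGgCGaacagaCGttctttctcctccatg

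ADGRL3: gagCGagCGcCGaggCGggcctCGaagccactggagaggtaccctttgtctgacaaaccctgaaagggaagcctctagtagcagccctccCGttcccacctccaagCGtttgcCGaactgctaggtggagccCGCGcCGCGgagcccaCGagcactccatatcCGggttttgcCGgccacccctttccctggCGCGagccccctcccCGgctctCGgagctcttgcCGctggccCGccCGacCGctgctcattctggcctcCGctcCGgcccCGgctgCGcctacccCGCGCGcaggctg

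The ADGRL2 window holds 19 CG dinucleotides, at percentile 57.1 of 35116 RefSeq promoter windows of this length, and the ADGRL3 window holds 30, at percentile 77.6, where the median window holds 14. RefSeq entries matched 9 of the 10 genes, ADGRL1 being without one, and gave 23 windows, of which 8 belong to ADGRL2 and 2 to ADGRL3. Searched on both strands, CACGTG was in 1 of the 23 windows (FLRT2) and in 7.26% of all windows. The shorter ACGTG, which CACGTG contains, was in 2 of 23 (FLRT2 and TENM3) and in 21.4% of all. TATAAA was in 2 of 23 (ADGRL2 and TENM2) and in 11.5% of all. Of the 10 windows of ADGRL2 and ADGRL3, 0 held CACGTG or ACGTG and 1 held TATAAA. Values per gene do not tell which start was in use, and a match or its absence describes these windows only.

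ADGRL2 (ENSG00000117114, chr1:81306147-81993932, plus strand) is the latrophilin known from postsynaptic membranes of the hippocampus that receive input from the entorhinal cortex. Its rlog values were 9.33, 9.41 and 9.32 in the parental libraries, 7.10, 7.09 and 7.05 in the KD libraries and 9.05, 9.05 and 9.06 in the OE libraries. The KD libraries lay far below all others, and the OE libraries lay just below parental without overlap. The KD difference was -2.27 (standard error 0.035, 95% interval -2.34 to -2.20), the decrease at place 4 among 22195 genes with a symbol and the value for which the set was chosen. In OE ADGRL2 fell by 0.30 (standard error 0.035, limma adjusted p = 2.13e-08, lower in 3 of 3 libraries). The choice of the set did not use the OE libraries, but it did use the parental libraries of this comparison, so the test is not free of it. Its annotated exons share no bases with another gene.

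ADGRL3 (ENSG00000150471, chr4:61200326-62078335, plus strand), a receptor of TENM3 and FLRT3 whose gene has been linked to attention deficit hyperactivity disorder, went the other way. Levels of ADGRL3 were 7.89, 7.80 and 7.77 in parental, 8.98, 8.96 and 8.89 in KD and 8.26, 8.27 and 8.29 in OE, on the rlog scale. The 3 groups did not overlap, with KD highest, OE between and parental lowest. Its KD difference was 1.12 (standard error 0.038, 95% interval 1.04 to 1.20, and 0.70 less the median of its 20-Mb stretch of chromosome), place 86 from the largest increase among the genes with a symbol. In OE it rose by 0.45 (standard error 0.038, limma adjusted p = 1.81e-11, higher in 3 of 3 libraries). The difference of ADGRL3 between OE and KD was -0.67 (limma adjusted p = 3.86e-16), all OE libraries being lower, and it was -0.13 less the median of the stretch (limma adjusted p = 0.0038).

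ADGRL1 (ENSG00000072071, chr19:14147743-14206187, minus strand) encodes the receptor first purified with alpha-latrotoxin and shares 5.57% of its exonic bases with the antisense gene ADGRL1-AS1. It had rlog values of 7.830, 7.865 and 7.837 in parental, 8.083, 8.115 and 8.038 in KD and 7.921, 8.034 and 8.004 in OE, given to 3 decimals because KD and OE lie close. Parental values were the lowest, and the KD values lay above the OE values by a narrow margin. The KD difference of ADGRL1 was 0.23 (95% interval 0.15 to 0.32). In OE it rose by 0.14 (standard error 0.039, limma adjusted p = 0.00439, higher in 3 of 3 libraries). The difference between OE and KD, -0.09, did not pass the test in limma (adjusted p = 0.0521, 95% interval -0.17 to -0.01) and sat at its edge, with adjusted p from 0.0302 without OE replicate 2 to 0.273 under the alternatives.

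**Figure D1:**
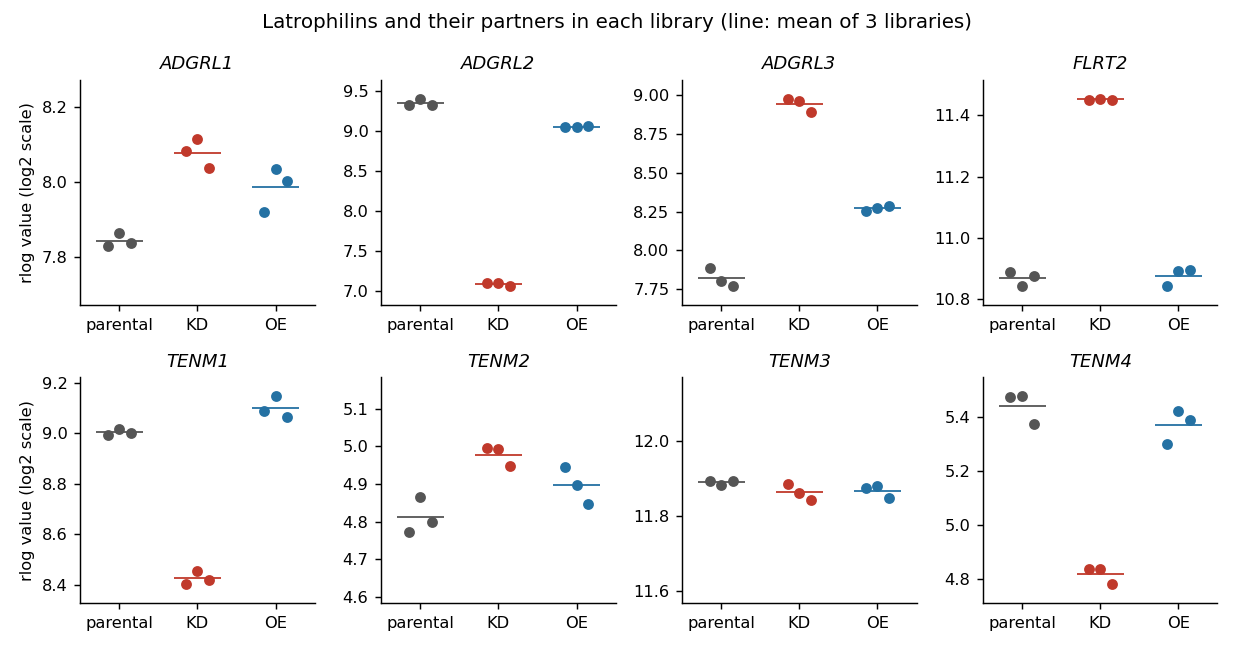
Each point is the rlog value (log2 scale, vertical axis, with a range of its own in each panel) of 1 library for the 8 genes with a row, grouped as parental, KD and OE, with a line at the mean of 3 libraries. ADGRL2 in the KD libraries lies at 7.05 to 7.10 against 9.32 to 9.41 in parental, and TENM3 lies between 11.843 and 11.893 in all 9 libraries.

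The teneurins were measured at very different levels. TENM3 (ENSG00000218336, chr4:182143987-182803024, plus strand), which guides the matching of connections in the visual system and hippocampus, was read at 11.892, 11.883 and 11.893 in parental, 11.884, 11.860 and 11.843 in KD and 11.873, 11.878 and 11.848 in OE. KD and parental overlapped, and the OE values lay just under the parental ones. The differences of TENM3 were -0.03 in KD (95% interval -0.06 to 0.01) and -0.02 in OE (95% interval -0.06 to 0.01, limma adjusted p = 0.376). OE and KD differed by 0.00 (95% interval -0.03 to 0.04, limma adjusted p = 0.877), on the shrunken scale.

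TENM1 (ENSG00000009694, chrX:124375903-125204312, minus strand), the X-linked teneurin, shares 5.53% of its exonic bases with a pseudogene on its own strand and with STAG2 on the opposite strand. The rlog values of TENM1 were 8.994, 9.018 and 9.001 in parental, 8.402, 8.455 and 8.419 in KD and 9.089, 9.147 and 9.063 in OE. All KD values were below all others, and all OE values were slightly above parental. Its KD difference was -0.58 (95% interval -0.65 to -0.51). The OE difference was 0.09 (standard error 0.033, limma adjusted p = 0.0241, higher in 3 of 3 libraries) and lost its call under quantile normalization (0.0545), with libraries centred on their medians (0.0701), and without OE replicate 2 (0.151), parental replicate 1 (0.0712) or parental replicate 3 (0.0574), these being limma adjusted p-values whose range over all alternatives was 0.0146 to 0.151. Against KD the OE libraries were higher in TENM1 by 0.67 (limma adjusted p = 1.12e-17).

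TENM4 (ENSG00000149256, chr11:78652829-79441030, minus strand), which is needed for myelination and has been linked to essential tremor, had rlog values of 5.47, 5.47 and 5.37 in parental, 4.84, 4.84 and 4.78 in KD and 5.30, 5.42 and 5.39 in OE. The KD values were the lowest, and the OE values overlapped parental. The KD difference of TENM4 was -0.62 (95% interval -0.72 to -0.53), and that of OE was -0.07 (95% interval -0.17 to 0.02, limma adjusted p = 0.267). OE libraries were higher than KD by 0.55 (limma adjusted p = 1.46e-11, in 3 of 3 libraries).

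TENM2 (ENSG00000145934, chr5:166979029-168264157, plus strand), the teneurin first isolated as a ligand of ADGRL1, had low values, at 4.772, 4.865 and 4.800 in parental, 4.995, 4.993 and 4.947 in KD and 4.944, 4.898 and 4.846 in OE. The KD values lay above the other 2 groups, narrowly so for OE, and OE and parental overlapped. Its differences were 0.17 in KD (95% interval 0.07 to 0.26), 0.08 in OE (95% interval -0.01 to 0.18, limma adjusted p = 0.165) and -0.08 between OE and KD (limma adjusted p = 0.141). At this level the shrinkage of rlog values is strong, and a small difference of TENM2 may stand for a larger one in reads.

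FLRT2 (ENSG00000185070, chr14:85530144-85654428, plus strand), the FLRT protein that repels cells bearing UNC5 receptors and adheres through latrophilins, was the FLRT gene with a row. Its rlog values were 10.89, 10.84 and 10.88 in parental, 11.45 in each of the 3 KD libraries and 10.84, 10.89 and 10.89 in OE. The KD libraries were higher than all others, and OE and parental overlapped almost fully. The KD difference of FLRT2 was 0.58 (95% interval 0.54 to 0.63). For OE it was 0.01 (95% interval -0.04 to 0.05, limma adjusted p = 0.854), with a sign that turned with each library centred on its median (-0.01). From KD to OE the difference was -0.58 (limma adjusted p = 1.55e-20, lower in 3 of 3 OE libraries).

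The 2 comparisons against parental share the 3 parental libraries, so each gene's differences are set side by side and no agreement is read from them. ADGRL2 had -2.27 in KD and -0.30 in OE. ADGRL3 had 1.12 and 0.45, and ADGRL1 had 0.23 and 0.14. TENM1 was lower in KD (-0.58) and higher in OE (0.09), where all 3 libraries of each group lay on their own side of parental. For FLRT2 (0.58 and 0.01) and TENM4 (-0.62 and -0.07) the OE intervals include 0. In KD 53.7% of all 22290 genes were called (26.9% higher and 26.9% lower). Calls of the 8 genes are not counted there, because this contrast chose the set. KD and parental did not overlap for 7 of the 8, 4 higher and 3 lower. This held for 59.2% of all genes (29.6% higher and 29.6% lower), and nothing is read from that count for the same reason. Against parental, 4 of 8 were called in OE, ADGRL1, ADGRL3 and TENM1 higher and ADGRL2 lower, beside 34.8% of all genes (16.9% higher and 18.0% lower). OE and parental did not overlap for 5 of 8, with TENM3 added on the lower side, beside 43.2% of all genes (21.2% higher and 22.0% lower). From KD to OE 4 of the 7 genes other than ADGRL2 were called, TENM1 and TENM4 higher in OE and ADGRL3 and FLRT2 lower, beside 47.3% of all genes (23.5% higher and 23.8% lower). These tests share the KD libraries with the contrast that chose the set and are not free of that choice. OE and KD did not overlap for 6 of these 7, 2 higher and 4 lower, beside 54.1% of all genes (27.6% higher and 26.5% lower). The difference of ADGRL2 between OE and KD, 1.97, rests on the KD values that chose it and was not tested. The called shares in OE and between OE and KD are not far from these backgrounds and are no result about the families. Median absolute differences of the 8 genes were 0.581 in KD and 0.0892 in OE, beside 0.0806 and 0.0479 over all genes. Nothing is read from the KD median, which includes ADGRL2 and comes from the contrast that chose the set.

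**Figure D2:**
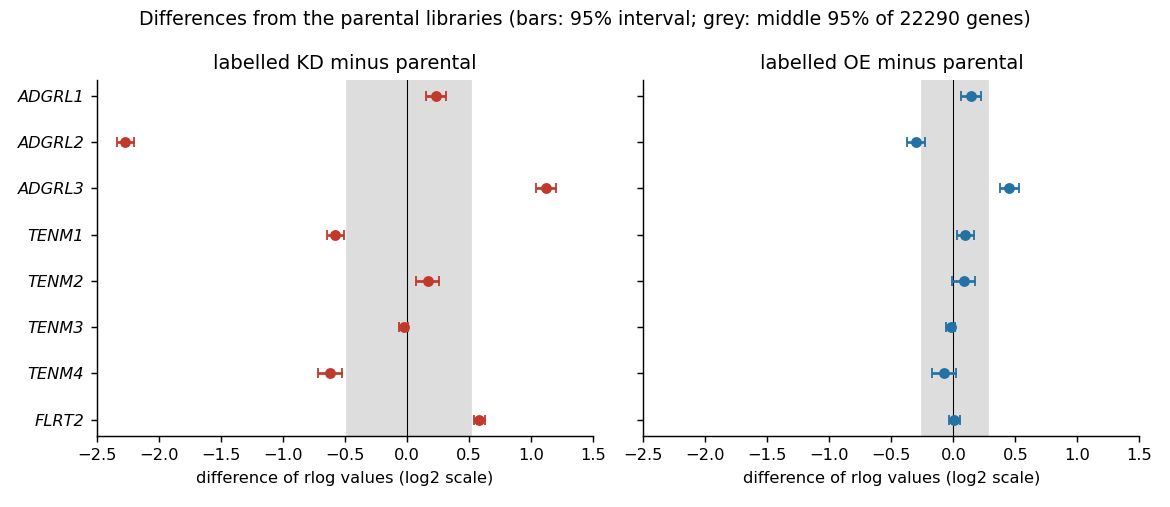
Differences of rlog values from parental (log2 scale, horizontal axis) are shown for the 8 genes in KD (left) and OE (right), with bars for the 95% interval of limma and a grey band for the middle 95% of all 22290 genes. The band runs from -0.48 to 0.52 in KD and from -0.25 to 0.28 in OE, and ADGRL2 and ADGRL3 lie outside it on opposite sides in both panels.

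Levels can be compared between genes only per length, here as rlog minus the log2 of the kilobases of all annotated exons. In the parental libraries TENM3 was highest at 8.30 ± 0.00576 (SD, n = 3), at percentile 69.3 of 14697 protein-coding genes on that scale. FLRT2 followed at 5.62 ± 0.0248 (SD, n = 3) and TENM1 at 5.24 ± 0.0122 (SD, n = 3). ADGRL1 at 4.76 ± 0.0184 and ADGRL2 at 4.76 ± 0.0475 (SD, n = 3 each) did not differ beyond their spread, and ADGRL3 lay below them at 3.92 ± 0.0616. The lowest were TENM4 at 1.40 ± 0.0574 and TENM2 at 0.40 ± 0.0481, at percentiles 13.1 and 8.68. This order depends on the length used for ADGRL2, whose annotated exons hold 24178 bases and whose canonical transcript holds 7432. Per kilobase of canonical transcript the parental level of ADGRL2 was 6.46, above FLRT2 (5.80), TENM1 (5.32) and ADGRL1 (4.88).

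In the KD libraries the order of the receptors changed. Per kilobase of annotated exons ADGRL3 (5.04 ± 0.0447) and ADGRL1 (4.99 ± 0.0388) did not differ beyond their spread there, and ADGRL2 was the lowest latrophilin at 2.49 ± 0.0242 (SD, n = 3 each). In OE the order was ADGRL1 (4.90 ± 0.0588), ADGRL2 (4.46 ± 0.00579) and ADGRL3 (4.37 ± 0.0144). Per kilobase of canonical transcript ADGRL2 came first in OE at 6.16, before ADGRL1 (5.02) and ADGRL3 (4.49), and last in KD at 4.19, after ADGRL3 (5.16) and ADGRL1 (5.11). Among the partners TENM3, FLRT2 and TENM1 kept that order in all 3 groups, with FLRT2 at 6.20 and TENM1 at 4.67 in KD.

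As a share of the 3 latrophilins, summed per kilobase of annotated exons after conversion from log2, ADGRL2 made up 38.4%, 39.8% and 38.9% in parental, 7.95%, 7.88% and 8.05% in KD and 30.9%, 29.8% and 30.1% in OE. ADGRL3 made up 22.9%, 21.2% and 21.5% in parental, 47.3%, 46.5% and 46.6% in KD and 28.9%, 28.2% and 28.6% in OE. The share of ADGRL2 was thus smallest and that of ADGRL3 largest in KD, with no overlap between groups, and ADGRL1 took 39.1%, 45.2% and 41.2% on average. The KD shares rest on the ADGRL2 decrease that chose the set. As parts of 1 sum, the shares of ADGRL1 and ADGRL3 grow when ADGRL2 falls. The KD shares are therefore a description only. The sum itself was 69.3 ± 1.25 in parental, 70.4 ± 1.87 in KD and 72.6 ± 1.38 in OE (SD, n = 3 each). Whether that latrophilin sum differs depends on the length, because per kilobase of canonical transcript it was 134 ± 3.22, 88.6 ± 2.23 and 126 ± 1.53, with KD lowest. On that basis ADGRL2 held 65.7% in parental, 20.6% in KD and 56.5% in OE. Which isoforms were made was not measured. Of the summed teneurins per kilobase of annotated exons, TENM3 held 88.3% in parental, 91.6% in KD and 87.5% in OE, and TENM1 10.6%, 7.50% and 11.4%.

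**Figure D3:**
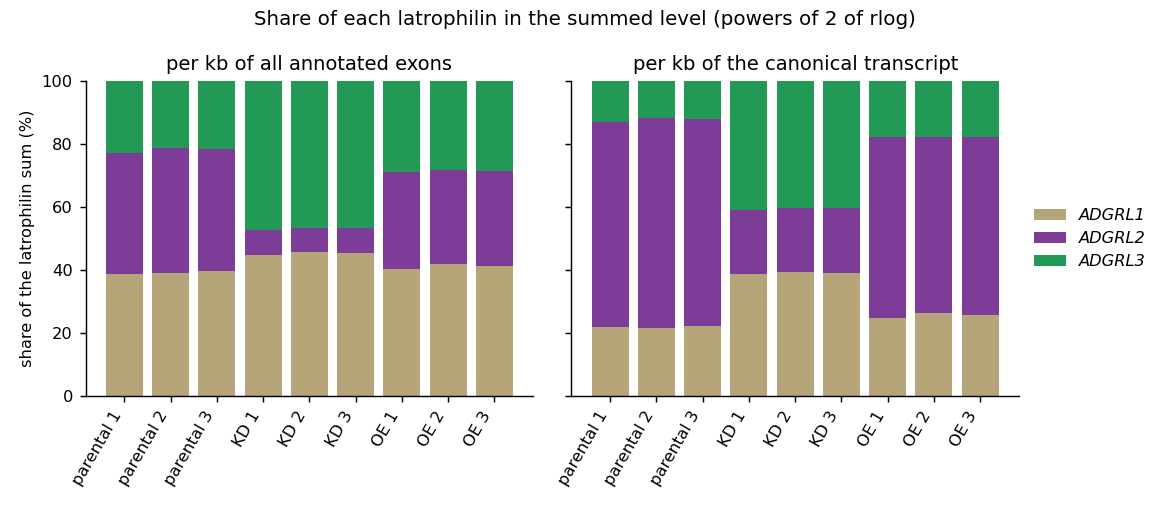
Stacked bars give the share (%) of ADGRL1, ADGRL2 and ADGRL3 in the summed latrophilin level of each of the 9 libraries, per kb of all annotated exons (left) or of the canonical transcript (right). ADGRL2 shrinks from 39.0% in parental to 7.96% in KD on the left and from 65.7% to 20.6% on the right, and ADGRL3 grows. The KD shares rest on the ADGRL2 decrease that chose the set.

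The surroundings of ADGRL2 and ADGRL3 on their chromosomes were looked at next. Within 5 Mb of the start of ADGRL2 there were 17 protein-coding genes whose mean rlog reached 8. Their KD differences ran from -0.37 to 0.42 with a median of -0.003, 7 higher and 10 lower. In OE they ran from -0.42 to 0.11 with a median of -0.018, and the ADGRL2 difference of -0.30 lay within that range. Below it were ADGRL4 (-0.42), IFI44 (-0.39) and CCN1 (-0.36), and the other neighbours ran from -0.10 (RPF1) to 0.11 (MCOLN2). The lowest of the neighbours in KD and in OE was ADGRL4, described below.

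ADGRL3 had 8 such neighbours within 5 Mb, all before its start, with KD differences of -0.14 to 0.22 and a median of -0.006. Over its wider 20-Mb stretch, chromosome 4 from 60 to 80 Mb, the median KD difference of 31 genes was 0.42 and 83.9% of them were higher. The protein-coding genes of the stretch nearest to ADGRL3, from CENPC at 6.345 Mb to DCK at 9.792 Mb from its start, had KD differences between -0.30 (UTP3) and 0.20 (RUFY3), all below that median. In OE the median of the stretch was -0.07, and less that median ADGRL3 had 0.52. Between OE and KD the stretch had a median of -0.54, and removing it took the difference of ADGRL3 from -0.67 to -0.13, given above. For ADGRL2 the stretch of 48 genes had a median of 0.02 in KD, and its difference less the median was -2.29. In OE the median of that stretch was 0.03, and less it ADGRL2 had -0.33 (limma adjusted p = 2.67e-09). The stretches of the other 6 genes had medians between -0.03 and 0.00 in KD. Less the medians of their own stretches, the OE differences of TENM4 and FLRT2 were -0.04 and 0.05, not called in limma (adjusted p = 0.563 and 0.0562), and that of ADGRL1 was 0.20 (limma adjusted p = 0.000135).

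**Figure D4:**
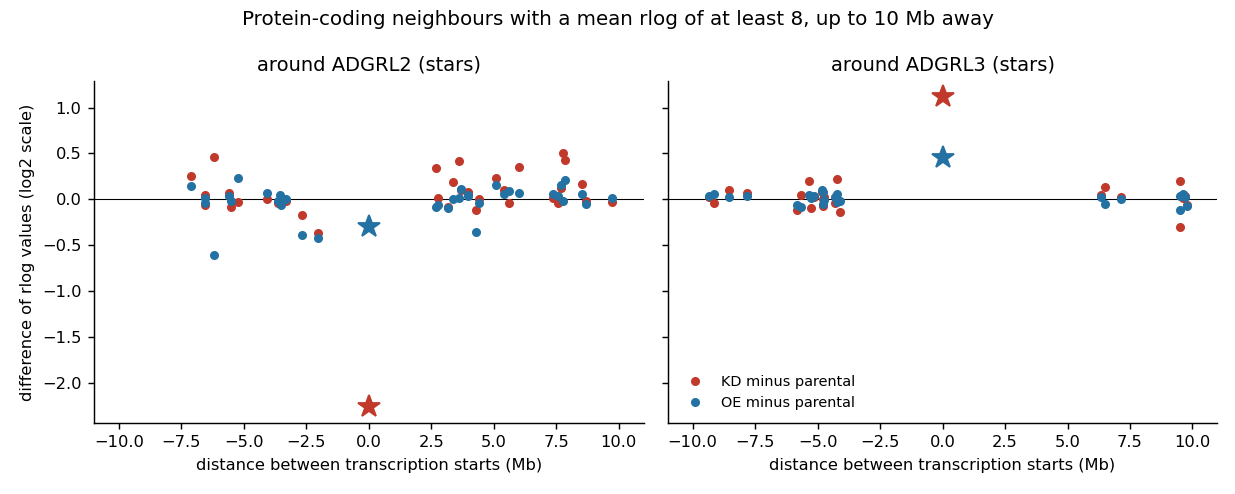
Differences of rlog values from parental (log2 scale, vertical axis) are drawn for protein-coding genes whose mean rlog reached 8 against the distance of their start from that of ADGRL2 (left) or ADGRL3 (right), up to 10 Mb away, red for KD and blue for OE. The stars at distance 0 are ADGRL2 at -2.27 and -0.30 and ADGRL3 at 1.12 and 0.45, while the 17 and 8 neighbours within 5 Mb stay between -0.37 and 0.42 in KD.

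Profiles most like these genes were sought among all genes with a symbol, as the smallest root mean square difference over the 9 libraries after each profile was centred on its parental mean. For ADGRL2 they were ZNF682 (0.136), ZNF320 (0.173) and MYH14 (0.178). These 3 had KD differences of -2.22, -2.17 and -2.28 like ADGRL2 but OE differences of -0.08, -0.02 and -0.01, closer to 0 than its -0.30. For TENM4 they included PPARG (0.033) and ST3GAL1 (0.048), and for FLRT2 they were SPRY4 (0.0246), CXXC5 (0.0305) and LONRF2 (0.031).

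ADGRL4, an adhesion receptor of endothelial cells that is named as a latrophilin but lacks the domain that binds teneurins, lies near ADGRL2 on chromosome 1. It had rlog values of 8.93, 9.05 and 9.05 in parental, 8.73, 8.61 and 8.59 in KD and 8.65, 8.56 and 8.55 in OE. Parental values were the highest, and KD and OE overlapped. It fell by 0.37 in KD (limma adjusted p = 1.17e-09) and by 0.42 in OE (limma adjusted p = 2.26e-10), unlike ADGRL2, whose KD difference was several times its OE difference. Of the 7 endothelial markers, 2 were called higher and 2 lower in KD (57.1% beside 53.7% of all genes), and in OE 3 were called lower (42.9% beside 34.8%). KDR, chosen after its values were seen, had differences of -1.32 in KD and -0.84 in OE. PECAM1, the most abundant, had 0.47 in KD and -0.28 in OE, VWF had 0.21 and 0.06, and ESAM had -0.28 and -0.17. TEK, TIE1 and CDH5 had -0.08, -0.02 and -0.02 in KD and 0.02, -0.12 and -0.03 in OE. The endothelial sum was lowest in OE but highest in KD (1270, 1270 and 1250, beside 1180, 1200 and 1180 in parental), where ADGRL4 fell. The part of these markers in the ADGRL4 result was not tested.

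Of 11 other surface partners of latrophilins, teneurins and FLRT proteins, 9 had a row (not UNC5A and GPC3). In KD 2 were called higher and 2 lower, a share of 44.4% beside 53.7% of all genes, with a list median of -0.0164 beside -0.000507. NRXN3, a neurexin of the family that binds ADGRL1, fell by 0.57 in KD (limma adjusted p = 2.31e-14) and by 0.33 in OE (limma adjusted p = 1.82e-08). UNC5B, a netrin receptor that binds FLRT proteins, fell by 0.57 in KD (limma adjusted p = 1.65e-13) and rose by 0.14 in OE (limma adjusted p = 0.00898), and its relative UNC5C rose by 0.50 in KD (limma adjusted p = 2.86e-09). FGFR1, to whose signalling FLRT proteins add, rose by 0.21 in KD and fell by 0.09 in OE (limma adjusted p = 1.57e-09 and 0.00255). In OE 2 of the 9 were called higher and 2 lower, a share of 44.4% beside 34.8% of all genes. ROBO1, a partner of FLRT3, rose there by 0.10 (limma adjusted p = 8.14e-05).

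Inside the cell, 24 of 24 listed G proteins, cyclases, small GTPases, exchange factors and SHANK scaffolds had a row. In KD 6 were called higher and 10 lower, a share of 66.7% beside 53.7% of all genes. GNAS, the stimulatory G protein subunit, rose by 1.12 (standard error 0.0096) and ADCY1, an adenylyl cyclase, by 0.55, while GNAI1, an inhibitory subunit, fell by 0.71 and SHANK3, a scaffold that binds the tail of latrophilins, by 0.61 (limma adjusted p = 8.82e-38, 1.34e-13, 2.58e-17 and 1.23e-15). In OE 6 were called higher and 7 lower, a share of 54.2% beside 34.8% of all genes. There GNAO1 was up by 0.22, ADCY1 was up by 0.19 and ARHGEF1 and GNA11 each fell by 0.17, where GNA11 shares 14.7% of its exonic bases (limma adjusted p = 2.36e-06, 0.000238, 2.11e-09 and 2.05e-06).

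Among the 29 other adhesion receptors, 24 had a row. In KD 6 were called higher and 10 lower, 66.7% beside 53.7% of all genes, and in OE 6 higher and 8 lower, 58.3% beside 34.8%. ADGRF1 fell by 0.85 in KD and by 0.59 in OE (limma adjusted p = 1.15e-16 and 4.61e-12). ADGRG6, a receptor needed by Schwann cells to myelinate, rose by 0.52 in KD (limma adjusted p = 6.45e-21). The Schwann sum was also highest there, though single Schwann markers went both ways. ADGRE2 fell by 0.65 and 0.47 and ADGRA2 rose by 0.34 and 0.34 in KD and OE, with 15.7% and 23.0% of their exonic bases shared with other genes (limma adjusted p = 2.16e-16, 3.64e-12, 2.35e-09 and 7.86e-09). ADGRB1 rose by 0.30 in OE (limma adjusted p = 1.98e-06).

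**Figure D5:**
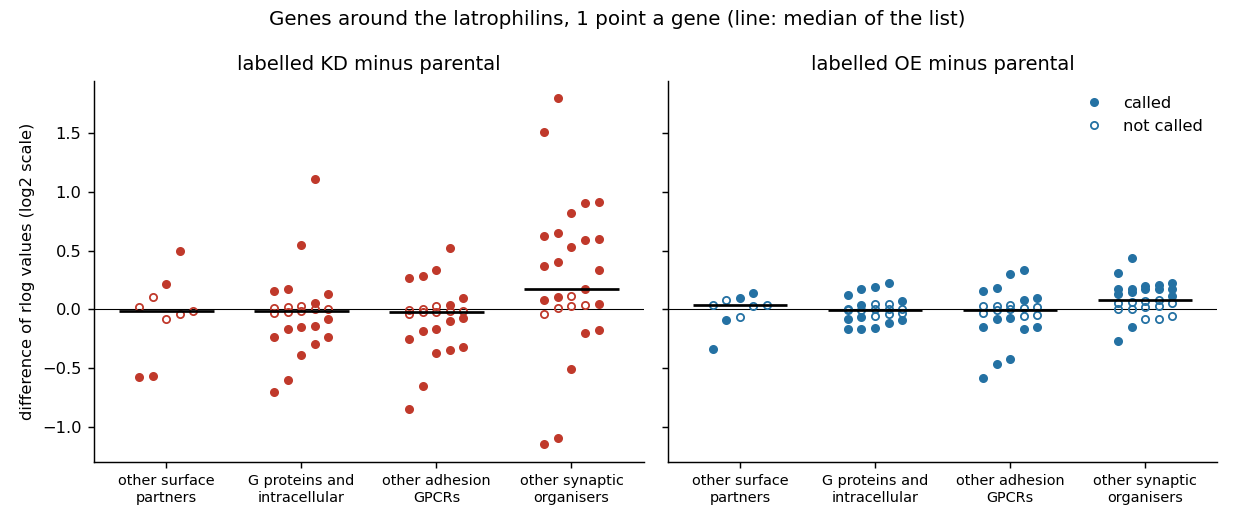
Each point is the difference of rlog values from parental (log2 scale, vertical axis) of 1 gene in KD (left) or OE (right), for other surface partners, genes inside the cell, other adhesion receptors and other synaptic organisers, filled where called and with a line at the list median. The synaptic organisers reach from -1.15 to 1.80 in KD, and the other 3 lists from -0.85 to 1.12.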

How the data were processed

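RNA-seq libraries (3 parental, 3 KD, 3 OE) of IMR-32 cells were analysed from the table of the authors. The authors trimmed reads with cutadapt (minimum quality 20, minimum length 36), aligned them with HISAT2 to GRCh38 and obtained gene counts with featureCounts of Subread, leaving out genes whose counts summed to less than 10. What they deposited is on a regularized log2 scale (rlog, DESeq2 by the submitters' processing notes), adjusted for library size and pulled toward each gene's mean. Versions, annotation release and strand setting were not given in the sources used here. Taken back from log2, the values summed to 34928732 to 35211774 per library, which is no measure of depth. A further 3 columns are empty and were not used.

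Group means were compared with limma 3.58.1 in R 4.3.3, in 1 fit of all 9 libraries with 6 residual degrees of freedom and a variance trend, with Benjamini-Hochberg adjustment over 22290 genes and a call at 0.05. Members and lists were chosen with earlier results of these data known. IDs were matched to symbols (22195 of 22290) and coordinates from GENCODE on GRCh38, and promoter windows came from RefSeq (GRCh38.p14). The genes named were TRAP1, the 10 family members, ADGRL4, per other list and comparison the 2 called genes with the largest increase and the 2 with the largest decrease, the protein-coding neighbours within 5 Mb whose mean rlog reached 8, and the 3 most similar profiles of ADGRL2, TENM4 and FLRT2, some of which are not reported here. Stretches of chromosome were blocks of 20 Mb with 10 or more genes whose mean rlog reached 8, and elsewhere the median of the chromosome was used. Alternatives were no variance trend, only the 2 groups compared, a mean rlog of at least 5, quantile normalization, centring each library on its median, the replicate number as a block, removal of the block median, each library left out, and an absolute difference over 0.5 as well. Proteins were not used here.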

Additional observations from a re-analysis of the deposited data

How the results depend on the processing

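The alternatives other than the added limit on the size of a difference were tallied for the 8 genes. In KD against parental the direction was kept in 127 of 127 cases. Calls are not tallied there, because that contrast chose the set. Direction and, where tested, side of the threshold were kept in 118 of 127 cases in OE against parental. Between OE and KD they were kept in 118 of 127. The others are given here with those of TRAP1, and the cause was not tested unless the setting itself shows it. Requiring an absolute difference over 0.5 as well left 1110 genes called in KD, 200 in OE and 793 between OE and KD. In KD the differences of ADGRL1, TENM2 and TENM3 lay under that limit. Of the 7 genes other than ADGRL2 the limit left 4 between OE and KD. It left 0 of the 8 in OE, where the largest limma difference, that of ADGRL3, was 0.45. The sign turned with each library centred on its median for FLRT2 in OE (-0.01127), TRAP1 in OE (-3.935e-05) and TENM3 between OE and KD (-0.002597). With 1 library left out, these ranged from -0.006922 to 0.02375 for FLRT2, from -0.01183 to 0.04165 for TRAP1 and from -0.005393 to 0.01515 for TENM3. TENM1 in OE lost its call in 5 settings. ADGRL1 between OE and KD gained one without the variance trend (adjusted p = 0.0341), under quantile normalization (0.0454), median centring (0.0353) and the replicate block (0.0489), and without KD replicate 3 (0.037) or OE replicate 2 (0.0302), all from limma. With 1 library left out, the decrease of ADGRL2 was -2.286 to -2.243 in KD and -0.3157 to -0.2731 in OE, the genes called were 11106 to 12030 in KD, 6857 to 7762 in OE and 9636 to 10575 between OE and KD, and 3 to 4 of the 8 genes were called in OE.

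Libraries of different groups with the same replicate number deviated together little (r from -0.0458 to 0.1, beside -0.101 to 0.0572 for different numbers). The highest values were those of KD and OE replicate 3 (0.1) and KD and OE replicate 1 (0.0861). Such correlations cannot tell whether libraries of the same number were prepared together. The replicate block called 12015 genes in KD, 7854 in OE and 10623 between OE and KD, and changed no other call of these genes than that of ADGRL1.

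The rlog scale limits what can be said: differences are shrunken, most for TENM2 and TENM4, and without counts the precision at low levels is unknown. TENM2 and other genes under a mean rlog of 5 have no value under that filter.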

Other observations

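Synaptic adhesion proteins outside the latrophilin families were spread over a wide range. Of 34 listed synaptic organisers 27 had a row, and LRRTM1, LRRTM2, LRRTM3, LRRC4, SLITRK1, SLITRK4 and CBLN4 had none. In KD 17 were called higher and 5 lower, a share of 81.5% beside 53.7% of all genes, with a list median of 0.174 beside -0.000507. NTNG1, a netrin-like ligand of the axon, rose from 5.76 ± 0.0749 to 7.56 ± 0.03 (SD, n = 3 each, limma adjusted p = 3.42e-25), and LRRTM4, a postsynaptic leucine-rich repeat protein, rose by 1.52 (limma adjusted p = 1.39e-22). SLITRK6 fell by 1.15 and LRRC4B by 1.09 (limma adjusted p = 1.26e-29 and 9.32e-25). These lists were chosen with earlier results known, and no more than these counts is read from them.

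In OE 13 of the 27 were called higher and 2 lower, a share of 55.6% beside 34.8% of all genes, with a list median of 0.0792 beside 0.000394. CADM3 rose by 0.44, with 36.6% of its exonic bases shared with other genes, and NLGN2, a neuroligin of inhibitory synapses, rose by 0.31 (limma adjusted p = 3.48e-10 and 9.48e-15). The decreases were those of SLITRK6, by 0.27, and of NTNG1, by 0.15 (limma adjusted p = 2.22e-12 and 0.0131). Between OE and KD 9 were called higher and 16 lower, a share of 92.6% beside 47.3% of all genes.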
